A study of Saccharomyces cerevisiae with 2 samples.

Results

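The genes of the factors that carry ribosomes through initiation, elongation and termination were measured in wild-type budding yeast grown on restricted and unrestricted glucose. Members were taken by symbol: 42 genes were listed by their known function, and every probe set that the array's annotation names for one of them was used. Of the 42 genes, 39 had such a probe set, 1 each, among 10928 probe sets and 5449 genes of *S. cerevisiae*. TIF1, TEF1 and EFT1 had none. Their paralogs TIF2, TEF2 and EFT2 were each measured by a probe set whose suffix marks probes matching several transcripts, so these 3 values may hold RNA of both copies.

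Haploid BY4742 cells (mating type alpha, with mutations of HIS3, LEU2, LYS2 and URA3 on both media) were grown in yeast extract (1%) and peptone with 0.5% glucose (dietary restriction, DR) or 2.0% glucose (*ad libitum*, AL). Cultures were started at an OD600 of 0.01 and grown at 30°C for 12 hours to 0.85–0.99, and total RNA of each medium was hybridized to 1 Affymetrix GeneChip Yeast Genome 2.0 array. A single array stands for each condition, so no error can be estimated, no test was run, and differences between the arrays cannot be told apart from differences between single cultures. The signals are normalized per array, so a gene's share of the RNA and the amount of RNA per cell cannot be told apart either.

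The media were taken from the labels. The direction that follows from them opposes the direction of the ratios in the study's own tables, for all 62 genes compared. The study also relates the genes lowered by DR to ribosome and translation, among other terms. Each array is therefore named here by its label, and exchanging the labels would turn the sign of every difference below. The highest signal was 10739 on the DR-labelled array and 10502 on the AL-labelled one. As a background level, the highest signal of 9 genes was taken that BY4742 lacks or that alpha cells keep silent, 129.4 on the DR-labelled array and 281.6 on the AL-labelled array. The gene STE6, silent in alpha cells, set the level on both arrays, and STE2 came next with 56.6 and 152.6. A signal called under background can therefore lie above the other reference genes. No member lay under the background level on both arrays.

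Initiation begins when eIF2, loaded with GTP and the initiator tRNA, joins the small ribosomal subunit with eIF1, eIF1A, eIF3 and eIF5. The eIF4 factors bring the capped mRNA, eIF5B joins the large subunit, and eIF2B recharges eIF2 for another round. In elongation eEF1A delivers aminoacyl-tRNAs, eEF2 moves the ribosome by a codon and eEF3, an ATPase typical of fungi, is needed in addition. eRF1 and eRF3 end the chain at a stop codon. In yeast, transcripts of this machinery are known to be abundant in fast growth, together with those of ribosomal proteins.

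Most translation factors had a higher signal on the DR-labelled array. Of the 39 genes, 34 had a ratio (DR-labelled over AL-labelled) above 1, beside 2487 of all 5449 genes. More than 2-fold higher on that array, the threshold of the study's methods, were 18 (46.2%), where 20.5% of all genes were. Only HEF3 (2.56%) was more than 2-fold higher on the AL-labelled array, where 24.3% of all genes were. The median log2 ratio (DR-labelled over AL-labelled) was 0.80 for the factors and −0.12 for all genes. Past 1.5-fold, 26 factors were higher on the DR-labelled array, beside 29.3% of all genes, and 2, HEF3 and SUI1, on the AL-labelled array, beside 35.7% of all genes.

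The factors are bright on the array, and the same comparison was made among genes of like signal. Of the members, 28 had a signal of at least 2000 on one of the arrays. Of these 28, 14 (50.0%) were more than 2-fold higher on the DR-labelled array, with a median log2 ratio of 0.92. Among all 1333 genes that bright, the share was 29.9% and the median 0.15. A gene could reach 2000 through only the array where it was higher, as RPG1 did with 2514 and 239.0. The limit is therefore not independent of the ratio counted, for members and for all genes, and the comparison is no separate support. Both the limit of 2000 and this comparison were chosen after the signals were seen.

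**Figure D1:**
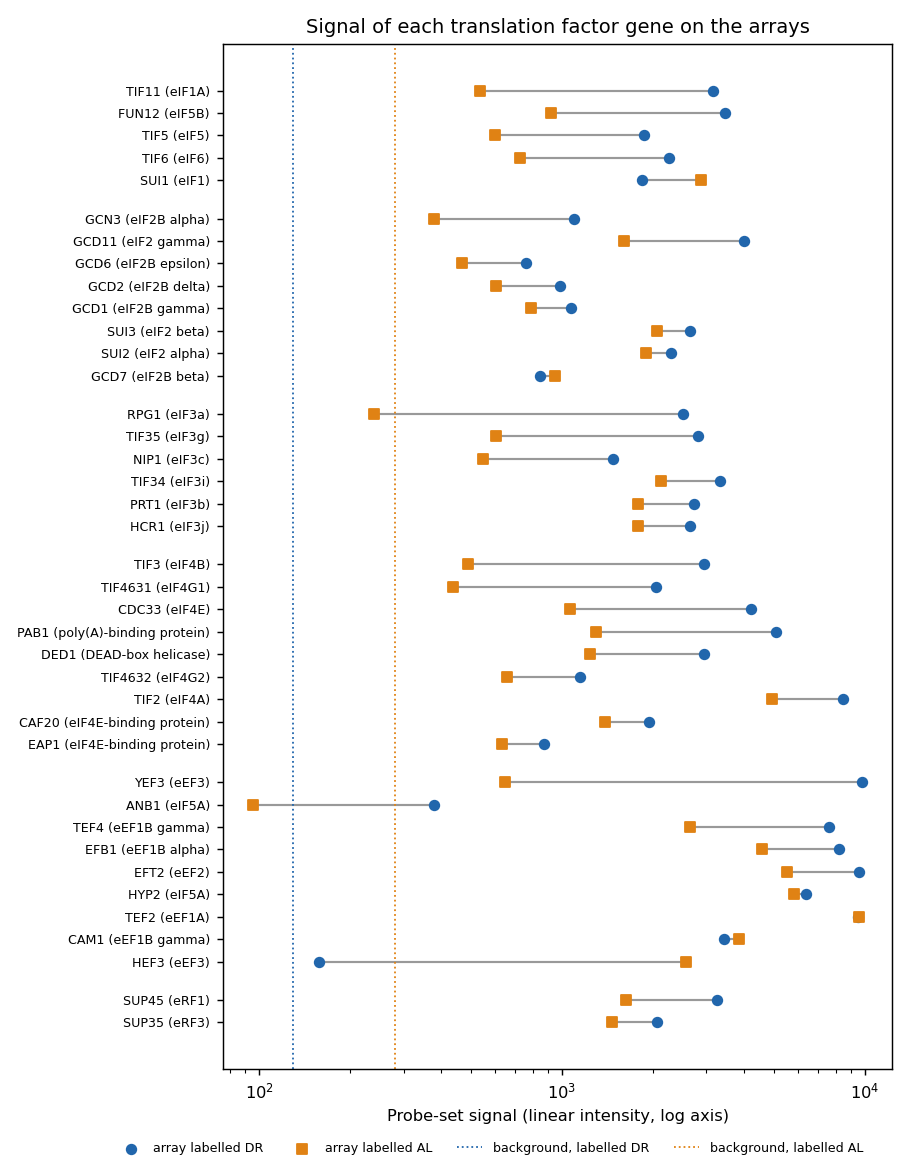
Probe-set signal (linear intensity on a log axis) of each of the 39 genes on the DR-labelled array (circles) and the AL-labelled array (squares), ordered by role and then by ratio. The dotted lines mark the background level of each array. YEF3 and HEF3 span the longest distances, in opposite directions, and the squares of RPG1 and ANB1 lie under the background of the AL-labelled array.

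**Figure D2:**
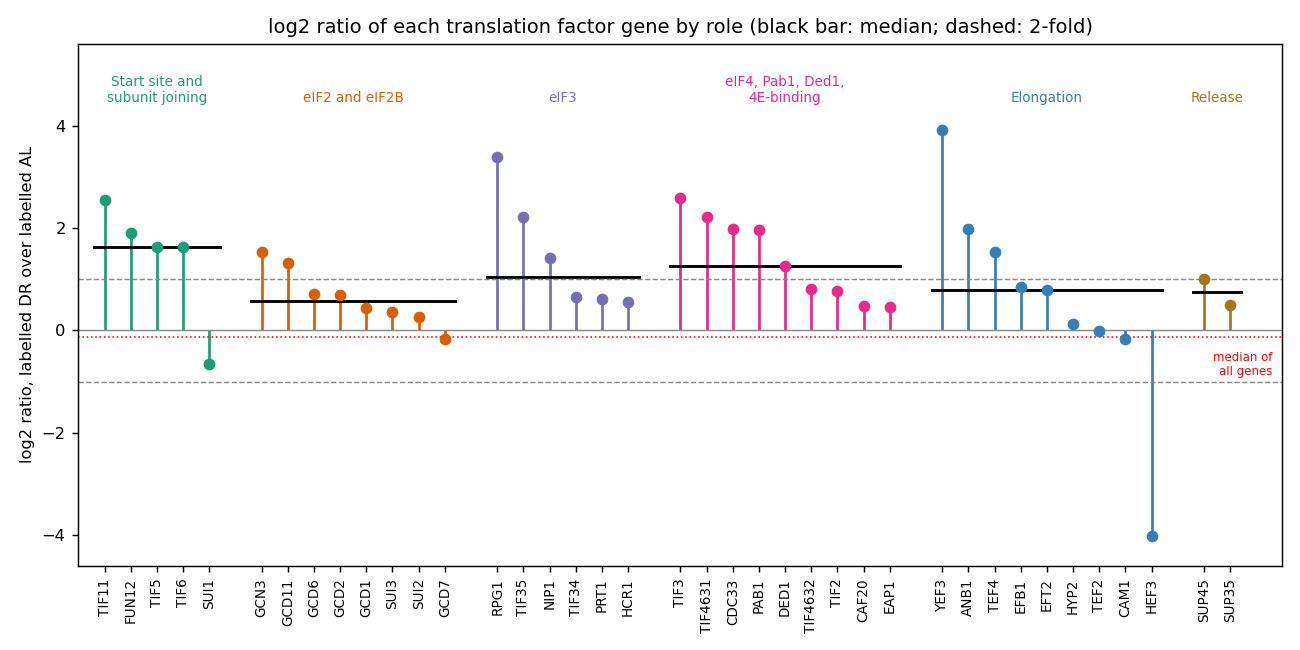
The log2 ratio of each gene (DR-labelled over AL-labelled), with the median of each role as a black bar, 2-fold as dashed lines and the median of all genes as a dotted line. All genes of eIF3 and of the eIF4 group lie above 0, and HEF3 at −4.02 is the only gene past 2-fold below it.

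Start codon selection and subunit joining had the highest median of the roles as drawn here, a log2 ratio of 1.63 over 5 genes. Of these, 4 (80.0%) were more than 2-fold higher on the DR-labelled array, where 20.5% of all genes were. TIF11, which encodes the scanning factor eIF1A, had a signal of 3156 on the DR-labelled array and 537.6 on the AL-labelled array, a 5.87-fold difference. FUN12, the gene of the GTPase eIF5B that joins the subunits, had 3454 and 922.0, 3.75-fold. Both were higher on the DR-labelled array.
TIF5, the gene of eIF5, which stimulates GTP hydrolysis by eIF2, had 1862 and 602.4. TIF6, the gene of eIF6, a protein that keeps the large subunit from joining and acts in its assembly, had 2260 and 728.2. These were alike in ratio, 3.09 and 3.10. SUI1, the gene of eIF1, which guards the choice of the start codon, stood the other way with 1834 on the DR-labelled array and 2878 on the AL-labelled array, a 1.57-fold difference. eIF1 and eIF1A bind the same small subunit side by side, and their genes lay at log2 ratios of −0.65 and 2.55.

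The genes of eIF2 and its exchange factor eIF2B had a median log2 ratio of 0.57. Of the 8, 2 (25.0%) were past 2-fold, both higher on the DR-labelled array, near the 20.5% of all genes. Within eIF2, SUI2, the gene of the alpha subunit that the kinase Gcn2 phosphorylates, had 2282 on the DR-labelled array and 1892 on the AL-labelled array. SUI3, the gene of the beta subunit, had 2639 and 2063. Both lay within 1.5-fold between the arrays.
GCD11, the gene of the gamma subunit, which binds GTP and the initiator tRNA, had 3990 and 1604, a 2.49-fold difference. The 3 subunits of this complex therefore spanned ratios from 1.21 to 2.49.

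In eIF2B, GCN3, the gene of the alpha subunit and the only gene of that complex that cells can do without, had 1094 on the DR-labelled array and 377.8 on the AL-labelled array, a 2.89-fold difference and the highest of the complex. GCD7, the gene of the beta subunit, had 846.2 and 947.6, with a ratio of 0.893, which passed to the other side of 1 after quantile normalization and after removal of the trend on signal. The alpha and beta subunits belong, with delta, to the regulatory part of eIF2B, and their genes were the extremes of the complex.
GCD2, the gene of the delta subunit, had 984.2 and 604.8. GCD6, the gene of the catalytic epsilon subunit, had 763.4 and 467.8. GCD1, the gene of the gamma subunit, had 1072 and 789.8. These 3 genes lay between 1.36-fold and 1.63-fold higher on the DR-labelled array.

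All 6 genes of eIF3, the large scaffold on the small subunit, had a higher signal on the DR-labelled array, with a median log2 ratio of 1.04. Of these, 3 (50.0%) were past 2-fold, beside 20.5% of all genes. RPG1, the gene of the largest subunit, eIF3a, had 2514 on the DR-labelled array and 239.0 on the AL-labelled array, a 10.5-fold difference. The latter signal is under the background of that array, which STE6 sets, but above the 152.6 of STE2, the next highest reference gene. With the signal raised to background the ratio was 8.93. TIF35, the gene of eIF3g, had 2821 and 605.3, 4.66-fold, and NIP1, the gene of eIF3c, had 1473 and 548.5, 2.68-fold.
The other core subunits differed less. PRT1, the gene of eIF3b, had 2733 and 1787. TIF34, the gene of eIF3i, had 3330 and 2122. HCR1, the gene of the loosely bound eIF3j, had 2641 and 1789. Their ratios lay between 1.48 and 1.57, so the 5 core subunits, which act in a single complex, spanned ratios from 1.53 to 10.5.

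All 9 genes of the eIF4 group and its partners also had a higher signal on the DR-labelled array, with a median log2 ratio of 1.25. Of these, 5 (55.6%) were past 2-fold, beside 20.5% of all genes. TIF3, the gene of eIF4B, which helps the helicase eIF4A, had 2944 on the DR-labelled array and 490.0 on the AL-labelled array, a 6.01-fold difference. CDC33, the gene of the cap-binding protein eIF4E, had 4207 and 1059, 3.97-fold. PAB1, the gene of the poly(A)-binding protein, had 5102 and 1299, 3.93-fold. The ratios of CDC33 and PAB1 were close to each other, and FUN12, of another role, lay near them at 3.75.
TIF4631 and TIF4632 encode the eIF4G scaffolds. TIF4631 had 2040 and 437.3, 4.67-fold, and TIF4632 had 1147 and 657.9, 1.74-fold. DED1, the gene of a scanning helicase, had 2948 and 1239, 2.38-fold. The probe set of TIF2, the gene of eIF4A, whose protein is identical to that of TIF1, had 8474 and 4953, 1.71-fold.
CAF20 and EAP1 encode proteins that bind eIF4E in competition with eIF4G. CAF20 had 1939 and 1389, a ratio of 1.40, and EAP1 had 871.5 and 634.9, a ratio of 1.37. Both lay below the ratios of eIF4E and both eIF4G genes. Without CAF20 and EAP1, the other 7 genes of the group had a median log2 ratio of 1.97. That is above the 1.63 of start codon selection and subunit joining, so the order of the roles depends on how they were drawn.

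**Figure D3:**
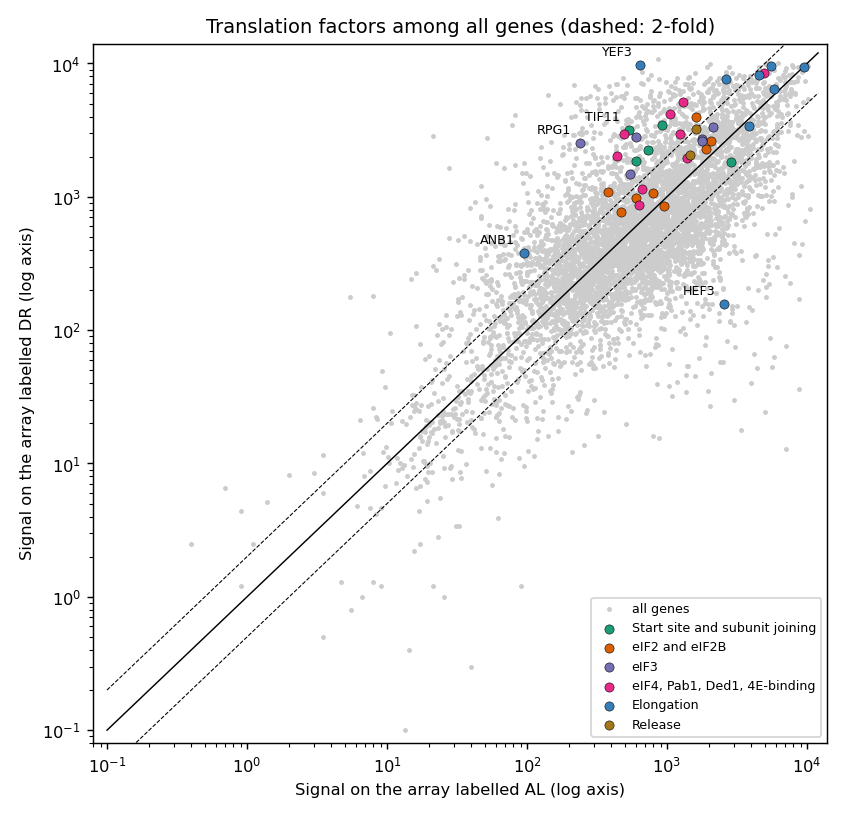
Signal of every gene on the AL-labelled array (x axis) and on the DR-labelled array (y axis), both on log axes, with the 39 translation factors coloured by role, equality as a solid line and 2-fold as dashed lines. Most coloured points lie above the solid line, and HEF3 stands alone below the lower dashed line.

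Elongation factors held the widest range, with log2 ratios from −4.02 to 3.92 and a median of 0.79 over 9 genes. YEF3, the gene of eEF3, had a signal of 9785 on the DR-labelled array and 646.7 on the AL-labelled array, a 15.1-fold difference, at percentile 99.2 of the ratios of all genes. HEF3, which encodes a second eEF3 that is little expressed in ordinary growth, had 157.9 and 2566, a 16.2-fold difference the other way, at percentile 1.3. Between the paralogs the ratios differed 245.9-fold.
The genes are close relatives, and each probe set was brighter on the array where the other was dimmer.

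HYP2 and ANB1 encode eIF5A, a factor that helps ribosomes through difficult peptide bonds and carries the rare amino acid hypusine. HYP2, the aerobic form, had 6392 on the DR-labelled array and 5823 on the AL-labelled array, a ratio of 1.10. ANB1, the form used when oxygen is short, had 376.6 and 95.5, a ratio of 3.94. The latter signal was under background, and with it raised to background the ratio was 1.34, under 2-fold. Whether the pair differed in ratio thus rests on a dim probe set.

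The gamma subunit of eEF1B, which reloads eEF1A with GTP, is encoded by TEF4 and CAM1. TEF4 had 7602 on the DR-labelled array and 2637 on the AL-labelled array, 2.88-fold, and CAM1 had 3421 and 3834, a ratio of 0.892. EFB1, the gene of the catalytic alpha subunit, had 8211 and 4572, 1.80-fold. The copies of the gamma subunit thus lay on either side of the alpha subunit.
The probe set of EFT2, for eEF2, had 9552 and 5520, 1.73-fold. The probe set of TEF2, for eEF1A, had 9470 and 9596, nearly equal on the arrays. Its signals were 88.2% and 91.4% of the highest signals of the arrays, and whether signals that high still follow the amount of RNA was not tested. EFT2 on the DR-labelled array stood at 89.0% of the highest signal and YEF3 at 91.1%.

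Both release factors had a higher signal on the DR-labelled array. SUP45, the gene of eRF1, which reads stop codons, had 3252 on the DR-labelled array and 1624 on the AL-labelled array. SUP35, the gene of the GTPase eRF3, known for its prion form, had 2057 and 1462. SUP45 lay at 2.00-fold, just past the threshold and under it after quantile normalization, and SUP35 at 1.41-fold. The nearest member inside the threshold was EFB1 at 1.80.

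**Figure D4:**
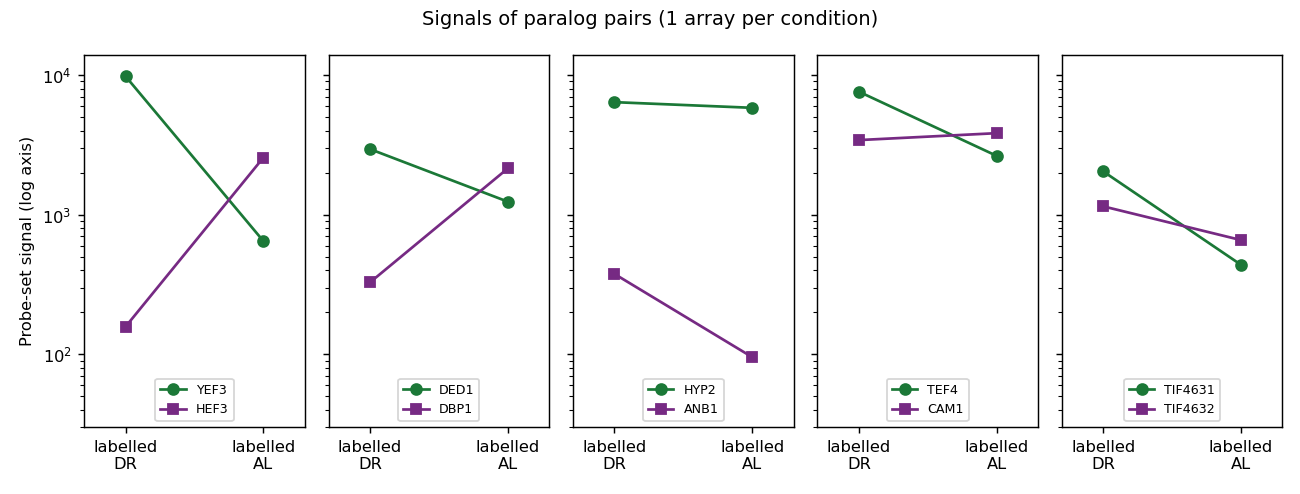
Signals (log axis) of 5 pairs of related genes on the DR-labelled array and the AL-labelled array, 1 line per gene. The slopes can be compared, but the heights of different probe sets cannot. The lines of YEF3 and HEF3, and of DED1 and DBP1, run in opposite directions. DED1 and DBP1 were not among the pairs set at the outset.

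Around these factors, 2 further lists were counted. Of 22 regulators and helpers of translation factors, 20 were measured, with a median log2 ratio of 0.85. Past 2-fold, 8 of the 20 (40.0%) were higher on the DR-labelled array, beside 20.5% of all genes. On the AL-labelled array 2 of the 20 were, beside 24.3% of all genes. NEW1, a relative of eEF3, had 2838 on the DR-labelled array and 443.9 on the AL-labelled array. RLI1, the ATPase that recycles ribosomes after termination, had 1523 and 291.9.
Of the 20 genes, 6 had a ratio at or below 1, and the 2 past 2-fold on that side were DBP1 and DOM34. DBP1, a paralog of the helicase gene DED1, had 327.6 and 2146, and DOM34, which acts on stalled ribosomes, had 886.2 and 3181. DED1 and DBP1 had log2 ratios of 1.25 and −2.71, on opposite sides like YEF3 and HEF3. This pair was not among those set at the outset, and DBP1 was named for the lowest ratio of its list, so the split was picked from these values. GCN2, the eIF2 kinase gene, had 631.8 and 668.6, and GCN4, whose translation depends on eIF2 activity, had 6882 and 3763. Both were named after their values were seen, and both lay within 2-fold.

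Of 18 genes of enzymes that modify translation factors or, for TAE1, ribosomal proteins, 17 were measured. Past 2-fold, 8 (47.1%) were higher on the DR-labelled array and 3 (17.6%) on the AL-labelled array, beside 20.5% and 24.3% of all genes. The median log2 ratio was 0.99. The enzymes that make hypusine on eIF5A led the list: DYS1 had 5746 on the DR-labelled array and 471.8 on the AL-labelled array, and LIA1 had 1245 and 233.9, the latter under background. Of the genes of their substrate, HYP2 lay at a ratio of 1.10 and ANB1 at 3.94, or at 1.34 with its dim signal raised to background.
Among enzymes that make diphthamide on eEF2, KTI11 had 175.7 and 1139, and DPH2 had 453.1 and 1316. Both were more than 2-fold higher on the AL-labelled array. The other 4 diphthamide genes of the list stood the other way. RRT2 had 742.9 and 313.9, a ratio of 2.37, and DPH5 had 1393 and 702.9, a ratio of 1.98. DPH1 lay at a ratio of 1.28 and DPH6 at 1.26, both with a signal under background on the AL-labelled array.

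**Figure D5:**
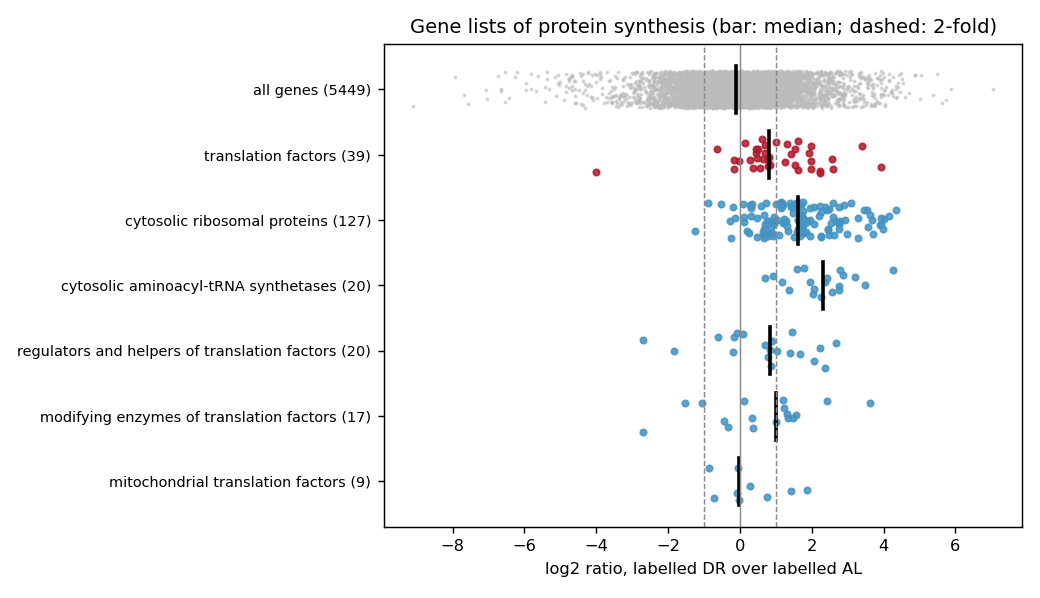
log2 ratio (DR-labelled over AL-labelled) of every gene and of 6 lists of protein synthesis, 1 point per gene, with the median as a black bar, 2-fold as dashed lines and the number of genes in parentheses. The medians of the lists run from −0.03 for mitochondrial translation factors to 2.31 for cytosolic aminoacyl-tRNA synthetases, with the translation factors at 0.80 and all genes at −0.12.

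The factors lay between other parts of the machinery. Cytosolic ribosomal proteins had a median log2 ratio of 1.63, and 90 of 127 (70.9%) stood past 2-fold on the DR-labelled side, beside 20.5% of all genes. Cytosolic aminoacyl-tRNA synthetases, which charge tRNAs, had a median of 2.31, with 18 of 20 genes (90.0%) past 2-fold. WRS1, for tryptophan, had 2377 on the DR-labelled array and 125.2 on the AL-labelled array, the latter under background, and DED81, for asparagine, had 5487 and 494.8.
The synthetase genes within 2-fold were GLN4, for glutamine, with 2167 and 1342, and MES1, for methionine, with 2366 and 1249. Whether the lists differ from each other was not tested, since no replicate gives an error.

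Mitochondria have translation factors of their own. Of 9 such genes, 2 (22.2%) stood past 2-fold on the DR-labelled side, near the 20.5% of all genes. On the AL-labelled side 0 did, beside 24.3% of all genes, and the median log2 ratio of the 9 was −0.03. MEF1, a mitochondrial elongation factor gene, had 1244 on the DR-labelled array and 337.6 on the AL-labelled array. MRF1, the gene of the mitochondrial release factor, had 710.8 and 264.2, the latter under background. TUF1, the mitochondrial counterpart of the eEF1A genes, had 3037 and 3224, and IFM1, the gene of an initiation factor, had 217.2 and 359.6.

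HEF3 is also named ZRG7, as a gene controlled by zinc through the activator Zap1. Of 12 other genes known as Zap1 targets, a list written after the HEF3 values were seen, 2 (16.7%) were more than 2-fold higher on the DR-labelled array and 3 (25.0%) on the AL-labelled array. These shares lay near the 20.5% and 24.3% of all genes. ZAP1 itself had 125.4 on the DR-labelled array, under background, and 905.7 on the AL-labelled array, and ZPS1 had 176.6 and 780.8. FET4 and ADH4 stood the other way, with 1565 and 348.4 and with 953.5 and 299.0. ZRT1, the high-affinity zinc transporter gene, had 400.0 and 204.9, the latter under background.

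ANB1 is held down by the repressor Rox1 in the presence of oxygen. Of 10 other genes known as targets of Rox1, ROX1 among them, also listed after the values were seen, 6 were more than 2-fold higher on the DR-labelled array and 2 on the AL-labelled array, where 20.5% and 24.3% of all genes were. The 6 include DAN1, a cell wall gene under background on both arrays with 21.3 and 6.40. They also include AAC3, of the mitochondrial ADP/ATP carrier, with 262.9 on the DR-labelled array, above its background, and 69.9 on the AL-labelled array, under background. HEM13, of heme synthesis, had 1726 on the DR-labelled array and 82.4 on the AL-labelled array, and TIR1, a cell wall gene, had 1953 and 223.5, both under background on the AL-labelled array. ROX1 itself had 1097 and 4079, and COX5B, the hypoxic cytochrome oxidase subunit, had 964.7 and 3040.

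Neighbouring genes were read from the gene order of the R64 assembly. HEF3 lies between PBI2, which had 833.1 on the DR-labelled array and 2541 on the AL-labelled array, and SPO1, which had 69.2 and 172.8 (under background on both). ANB1 lies between TAH11, which had 890.3 and 1421, and CYC1, the gene of aerobic cytochrome c, which had 570.2 and 280.5, the latter at the edge of background. RPG1 lies between ECM33, which had 8227 and 765.2, and SEC18, which had 1671 and 468.1. YEF3 lies between RCK2, which had 2846 and 2005, and SSP120, which had 1175 and 2876.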

How the data were processed

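Linear intensities of 10928 probe sets on 2 Affymetrix GeneChip Yeast Genome 2.0 arrays, 1 per medium, were used as deposited. The authors' service laboratory had normalized them with the Affymetrix statistical algorithms. The sources used here give neither the software version nor the scaling between arrays. The number of arrays limits the precision.

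Genes were named from the platform annotation and matched by gene ID to a RefSeq table of assembly R64 (5498 probe sets, 5449 genes). Where a gene had several probe sets their log2 values were averaged, which concerned no member. The ratio (DR-labelled over AL-labelled) was computed per gene and counted past 2-fold and 1.5-fold, and for the members also past 3-fold. The procedure was tested on simulated data.

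The members and lists were chosen with earlier results of these data known. All members are named, and from each other list fixed at the outset the 2 highest and 2 lowest ratios above background on at least 1 array. Ribosomal proteins, genes of like signal, Zap1 and Rox1 targets, neighbours and the pairing of DED1 with DBP1 were added later. Background was the highest signal on each array among LEU2, LYS2, URA3 and 6 a-specific genes. A planned motif search was not run, since no sequence was used here.

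Alternatives were median centring, quantile normalization, removal of a lowess trend on signal (span 0.3), raising low signals to background, adding the median background signal, leaving out dim genes, the brightest probe set and the mean. Exchanged labels, a lower background and leaving out probe sets for several transcripts were added after the values were seen. Scripts ran under Python 3.11.15 with statsmodels 0.14.6 for the trend, pandas 2.3.3 and numpy 2.4.6, and matplotlib 3.10.9 drew the figures.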

Additional observations from a re-analysis of the deposited data

How the results depend on the processing

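The count of translation factors more than 2-fold higher on the DR-labelled array was 18, and it ran from 17 to 20 over the scaling, background and probe-set alternatives. At 1.5-fold it was 26, beside 29.3% of all genes. At 3-fold it was 12, and since the share of all genes past 3-fold was not counted, that count has nothing to be read beside. The count on the AL-labelled array stayed at 1 under these settings and was 2 at 1.5-fold. The median log2 ratio of 0.80 ran from 0.78 to 1.03, the mean being 1.03. Exchanging the labels turned these results round, to 1 gene on the DR-labelled array, 18 on the AL-labelled array and a median of −0.80. Raising low signals to background brought the share of all genes past 2-fold to 14.1% on the DR-labelled array and 32.1% on the AL-labelled array, since the level is higher on the latter, and the median of all genes to −0.39. It left 17 factors past 2-fold on the DR-labelled array. Of the 19 genes past 2-fold in either direction, 17 stayed past it, on the same side, under every scaling, background and probe-set alternative. ANB1 had a log2 ratio of 0.42 with low signals raised and 1.39 with the median background added, and SUP45 fell under 2-fold after quantile normalization, removal of the trend and addition of the median background. The medians of the 6 roles kept their sign under the scaling alternatives and with low signals raised, that of elongation running from 0.42 to 0.91. GCD7, HYP2 and TEF2, all close to a ratio of 1, changed side under at least 1 scaling. No paired analysis was possible because each condition has 1 array, and for the same reason no array could be left out.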
